A study of Mus musculus with 12 samples.

Results

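The data described here are the mRNA levels of 3 genes of the mouse chitinase family, Chit1, Chil1 and Chil3, in leukemic blasts of 2 genotypes. They are 3 of the 24454 genes in the deposited table. All 3 passed the filter on low values, which kept 11476 genes with a mean of at least 10 normalized counts over the 12 libraries. The genes were taken by their symbols. Chit1 was chosen by its measured difference between the genotypes in both organs, seen in an earlier analysis of these libraries, and the other members were added as its relatives. The genotype differences of the 3 genes are therefore given as a description without a p-value.

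Fetal liver cells (FLCs) from wildtype (WT) mice or from mice without STAT3β, the short splice form of the transcription factor STAT3 (Δβ), were transformed with a retrovirus carrying the fusion oncogene MLL-AF9 and the fluorescent protein Venus. Both genotypes thus carried the same oncogene and reporter, and both were injected intravenously into male NSG mice (NOD.Cg-Prkdc scid Il2rg tm1Wjl/SzJ) of 6 to 8 weeks of age. NSG hosts lack mature T, B and NK cells but keep myeloid cells of their own. When the mice were diseased, Venus+ blasts were sorted from spleen (SP) and bone marrow (BM), and RNA was sequenced from poly-A libraries with 3 replicates per genotype and organ. The labels do not say whether replicates came from separate mice or separately transformed cells, so that p-values measure only the spread between these libraries.

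Chitinases cleave chitin, a sugar polymer of fungi, insects and worms that mammals do not make. Chit1 encodes chitotriosidase, an active chitinase that macrophages secrete, whereas Chil1 and Chil3 belong to the chitinase-like proteins, which share the fold but have lost the catalytic activity. Chil1 (BRP-39, the mouse counterpart of human YKL-40) binds glycans and signals in tissue remodelling, and Chil3 (Ym1) is a secreted lectin that myeloid precursors, neutrophils and alternatively activated macrophages of the mouse produce in large amounts.

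Chit1 (RefSeq NM_027979, Entrez gene 71884) lies on the plus strand at chr1:134111242-134151541 of GRCm38.p6. Chil1 (NM_007695, Entrez gene 12654) follows it on the same strand at chr1:134182156-134190031, after a gap of 30.6 kb. Chil3 (NM_009892, Entrez gene 12655) lies on the minus strand at chr3:106147554-106167564, in a cluster with the relatives Chia1, Chil4 and Chil5. The promoter windows of the neighbours Chit1 and Chil1 and of the paralogs Chil3 and Chil4 are printed because the levels within each pair ran alike across the libraries. Each window runs from 250 bases before to 50 bases after the RefSeq gene start, 5′ to 3′ on the strand of the gene, at chr1:134110992-134111291 for Chit1, chr1:134181906-134182205 for Chil1, chr3:106167515-106167814 for Chil3 and chr3:106219430-106219729 for Chil4. Capitals mark a match on either strand to TTCNNNGAA (STAT3 type), the STAT6 type (the same motif with a spacer longer by 1 base) or TTGCNNAA (C/EBP type). They also mark the PU.1 type core GAGGAA. A last motif searched was the TATA box core TATAAA.
Chit1: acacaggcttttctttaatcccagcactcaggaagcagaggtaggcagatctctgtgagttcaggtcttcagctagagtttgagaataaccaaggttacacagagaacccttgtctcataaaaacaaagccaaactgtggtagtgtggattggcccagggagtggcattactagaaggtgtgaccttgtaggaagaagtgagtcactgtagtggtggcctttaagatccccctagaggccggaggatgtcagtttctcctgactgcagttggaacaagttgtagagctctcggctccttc
Chil1: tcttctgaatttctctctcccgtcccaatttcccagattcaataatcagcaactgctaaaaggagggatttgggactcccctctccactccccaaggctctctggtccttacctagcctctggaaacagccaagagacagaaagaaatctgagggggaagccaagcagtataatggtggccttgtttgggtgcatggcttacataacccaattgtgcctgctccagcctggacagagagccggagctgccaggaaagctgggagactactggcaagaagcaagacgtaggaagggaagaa
Chil3: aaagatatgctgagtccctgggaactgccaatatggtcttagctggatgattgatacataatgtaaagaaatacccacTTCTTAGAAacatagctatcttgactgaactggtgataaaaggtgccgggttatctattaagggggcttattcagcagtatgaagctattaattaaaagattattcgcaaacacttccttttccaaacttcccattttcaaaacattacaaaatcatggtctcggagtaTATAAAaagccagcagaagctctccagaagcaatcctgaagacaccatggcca
Chil4: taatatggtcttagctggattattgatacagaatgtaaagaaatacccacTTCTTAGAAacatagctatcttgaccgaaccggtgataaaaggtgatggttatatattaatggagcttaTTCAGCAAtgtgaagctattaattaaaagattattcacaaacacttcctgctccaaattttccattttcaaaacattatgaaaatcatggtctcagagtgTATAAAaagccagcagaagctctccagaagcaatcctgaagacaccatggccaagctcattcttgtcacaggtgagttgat

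The Chil3 and Chil4 windows were 92.6% identical (251 of 271 aligned bases), while all other pairs were 55.9% to 61.2% identical. Chil3 and Chil4 both held the STAT3 type match TTCTTAGAA, starting 172 bases before the gene start of Chil3 and 200 bases before that of Chil4. Both also held TATAAA, starting 3 bases before the gene start of Chil3, so that it spans that start, and 31 bases before that of Chil4. Chil4 alone held the C/EBP type match. No match to these 5 motifs was found in the windows of Chit1 and Chil1, which says nothing about binding outside them. Among 32851 promoter windows of the same length, 8.3% held TTCNNNGAA, 6.95% the STAT6 type, 10.8% TTGCNNAA, 28.3% GAGGAA and 13.6% TATAAA.

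The libraries held 9001051 to 13859727 reads on genes, and 1 read was worth 0.775 to 1.17 normalized counts. All 11 markers listed for MLL-AF9 blasts, among them Hoxa9, Meis1 and Mpo, were expressed in every group. The median log2 fold of Δβ over WT for all genes tested was -0.01 in SP and -0.02 in BM. WT SP replicate 3 stood apart: of the genes tested, limma called 12 between genotypes in SP with it and 1884 without it (539 higher and 1345 lower in Δβ). For the 3 genes, the counts of the gene lists and the named genes whose call or direction it changed, the SP comparison is therefore also given without this library, where the median of all genes was -0.02.

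Chit1 was close to the detection limit in WT blasts and clearly expressed in Δβ blasts of both organs. In SP, WT replicates 1, 2 and 3 had 22.8, 7.42 and 12.2 normalized counts of Chit1, and Δβ replicates had 115, 207 and 369. In BM, the WT replicates had 16.9, 3.38 and 5.04 normalized counts and the Δβ replicates 171, 257 and 355. Every Δβ library lay above every WT library of its organ, the lowest Δβ library by 5.03-fold over the highest WT library in SP and by 10.1-fold in BM. Group means (± SD, n = 3) were 14.1 ± 7.87 in WT and 230.4 ± 128.9 in Δβ for SP, and 8.43 ± 7.36 in WT and 261 ± 92.4 in Δβ for BM. The log2 fold of Δβ over WT, on the scale of log2(normalized count + 1), was 3.91 (SE 0.60) in SP, 3.87 (SE 0.69) without WT SP replicate 3, and 5.01 (SE 0.60) in BM. The WT values rest on 3 to 20 reads per library and the Δβ values on 148 to 346 reads, so that a few reads in WT weigh on the size of the fold. In bulk libraries, fewer cells with a transcript and less of it per cell cannot be told apart.

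Chil1, the next gene along chromosome 1, was higher in Δβ blasts as well, from a larger WT level. WT SP replicates had 238, 313 and 131 normalized counts of Chil1 and Δβ SP replicates 1119.9, 1160.5 and 2287. In BM, the WT replicates had 320.5, 58.6 and 337 normalized counts and the Δβ replicates 1896, 1436 and 2857. The groups did not overlap in either organ, and the lowest Δβ library exceeded the highest WT library 3.58-fold in SP and 4.26-fold in BM. Means were 227 ± 91.4 in WT against 1522 ± 662 in Δβ for SP, and 239 ± 156 against 2063 ± 725 for BM (SD, n = 3). The log2 fold was 2.74 (SE 0.61) in SP, 2.39 (SE 0.66) without WT SP replicate 3, and 3.41 (SE 0.61) in BM. Among the WT libraries, BM replicate 2 was the lowest for Chil1, with 52 reads.

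Chil3 was by far the most abundant of the 3 genes, and its genotypes overlapped in SP as in BM. WT SP replicates had 51296, 115649.9 and 36371 normalized counts of Chil3, and Δβ SP replicates 66118, 25401 and 48217. In BM, the WT replicates had 23303, 103476 and 144009 normalized counts and the Δβ replicates 104036, 39860 and 32448. The highest and the lowest library of the series were thus both WT BM libraries. Means were 67772 ± 42129 in WT against 46579 ± 20408 in Δβ for SP, and 90263 ± 61428 against 58781 ± 39367 for BM (SD, n = 3). The log2 fold of Δβ over WT was -0.47 (SE 0.72) in SP and -0.46 (SE 0.72) in BM, less than 1 standard error from 0 in each, and -0.83 (SE 0.79) in SP without WT SP replicate 3. By mean normalized count Chil3 ranked 2 of 24454 genes, and 1 library devoted between 0.219% and 1.27% of all its normalized counts to this gene.

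**Figure D1:**
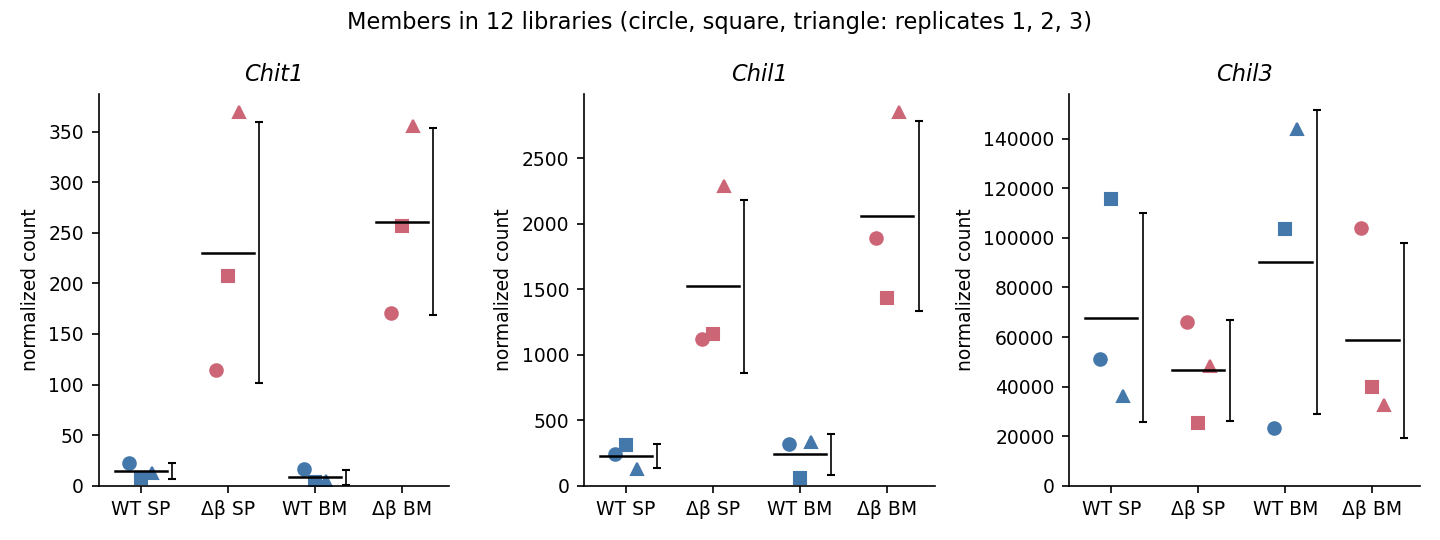
Normalized counts of Chit1, Chil1 and Chil3 (linear y axes from 0) in each library of WT (blue) and Δβ (red) blasts from SP and BM, with group means (horizontal lines) and SD (bars, n = 3). Chit1 and Chil1 separate by genotype in both organs, and Chil3 varies within groups as much as between them.

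Of the 3 genes, 2 (Chit1 and Chil1) had all Δβ libraries above all WT libraries in both organs, as did 0.863% of the genes tested. In SP alone 7.92% of genes tested showed this order, and in BM alone 3.5%. At an adjusted p under 0.05 (limma, Benjamini-Hochberg), Chit1 was the only one of the 3 among the called genes of both organs, where 0.105% of genes tested were called in SP, 0.0697% in BM and 0.0523% in both organs in the same direction. Since the choice of Chit1 used this comparison, nothing is read from these counts. Over 24 alternative analyses the log2 fold of Chit1 stayed between 3.49 and 4.33 in SP and between 4.51 and 5.61 in BM. The log2 fold of Chil1 stayed between 2.39 and 3.02 in SP and between 2.59 and 3.84 in BM in the same alternatives.

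Levels of different genes can be compared only per transcript length. Per kb of exon and per 1000000 normalized counts, the median level over the 12 libraries was 3.44 (range 0.177 to 19.9) for Chit1, 24.0 (1.99 to 97.3) for Chil1 and 2693 (1339 to 7781) for Chil3, and the order Chil3, Chil1, Chit1 held in all 4 group means. Chil3 ranked 4 of 23555 genes on this scale, close to the granule genes S100a9, Ngp and S100a8. The group means of Chit1 per length were 0.649 (WT) and 12.2 (Δβ) in SP, and 0.431 (WT) and 13.6 (Δβ) in BM. Those of Chil1 were 6.69, 52.2, 7.77 and 69.5 in the same order.

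The organ from which blasts were sorted made no difference to any of the 3 genes at an adjusted p under 0.05. This comparison did not enter the choice of the genes, and it was tested with limma over all genes. In WT blasts the log2 fold of SP over BM was 0.83 for Chit1 (SE 0.60, adjusted p = 0.701, limma), with a 95% interval (normal approximation) from -0.35 to 2.0. It was 0.20 for Chil1 (SE 0.61, adjusted p = 0.932, limma; -1.0 to 1.41) and -0.23 for Chil3 (SE 0.72, adjusted p = 0.935, limma; -1.63 to 1.18). In Δβ blasts it was -0.27 for Chit1 (-1.45 to 0.90), -0.46 for Chil1 (-1.67 to 0.74) and -0.24 for Chil3 (-1.65 to 1.16), each with an adjusted p of 1.0 from limma. These intervals still allow differences of more than 1 on the log2 scale, so that equal levels are not shown. The fit behind them took SP and BM libraries as unpaired. With a block for the number within each genotype, the SE in both genotypes was 0.26 for Chit1, 0.61 for Chil1 and 0.58 for Chil3. The adjusted p in WT was then 0.512, 0.915 and 0.897 (limma).

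The genotype difference itself was also compared between the organs. The log2 fold of Δβ over WT in SP minus that in BM was -1.10 for Chit1 (SE 0.85, adjusted p = 0.926, limma) and -0.67 for Chil1 (SE 0.87, adjusted p = 0.936, limma). For Chil3 the difference was -0.02 (SE 1.01, adjusted p = 0.997, limma). With the block within each genotype, the SEs were 0.37 for Chit1, 0.87 for Chil1 and 0.82 for Chil3 (adjusted p = 0.854, 0.873 and 0.996, limma). Across all 11476 genes limma called 0 genes for SP against BM in WT, 0 in Δβ and 0 for the difference of the genotype folds. At an unadjusted p under 0.05 these comparisons held 949, 203 and 367 genes. edgeR called 0 in each, and DESeq2 called 111, 2 and 3.

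Libraries of the same genotype and number gave SP to BM ratios of Chit1 of 1.35, 2.20 and 2.42 in WT and of 0.672, 0.806 and 1.04 in Δβ. For Chil1 the ratios were 0.743, 5.34 and 0.388 in WT and 0.591, 0.808 and 0.800 in Δβ. The wide WT ratios of Chil1 came from the low BM replicate 2 and the low SP replicate 3. For Chil3 they were 2.20, 1.12 and 0.253 in WT and 0.636, 0.637 and 1.49 in Δβ.

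The gene lists and neighbouring genes that follow are read against the shares of all 11476 genes tested. Between genotypes in SP, 14.9% of all genes differed at an unadjusted p under 0.05 in limma (5.93% higher and 8.96% lower in Δβ) and 2.59% in BM (1.25% higher and 1.33% lower). DESeq2 called 3.98% in SP and 0.322% in BM. A log2 fold below 0 was found for 51.9% of all genes in SP and for 54.7% in BM. In the fit without WT SP replicate 3, limma called 4.7% of all genes higher and 11.7% lower in Δβ SP.

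The other genes of the chitinase family did not share the pattern of Chit1 and Chil1. Of 8 relatives, 7 were in the table and 5 passed the filter, and limma, edgeR and DESeq2 called 0 of the 5 between genotypes in either organ, with 0 at an unadjusted p under 0.05. With WT SP replicate 3 left out, limma called 1 of them, Chil5. Their median log2 fold was -0.24 in SP and -0.02 in BM. Chia1, the acidic mammalian chitinase and another active enzyme of the family, and Chil6 had at most 1 read in any library. Chid1, which encodes a secreted and lysosomal member, had log2 folds of -0.03 (SE 0.19) in SP, 0.11 in SP without WT SP replicate 3 (adjusted p = 0.716, limma) and 0.04 (SE 0.19) in BM. Ctbs, the lysosomal chitobiase that trims the core of N-linked sugars, had -0.26 (SE 0.22) and 0.07 (SE 0.22). Ovgp1, an oviduct glycoprotein, stayed between 29.2 and 51.9 normalized counts, with log2 folds of -0.14 and -0.02 (SE 0.26).

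Chil5 was the relative with the widest spread. Its WT SP libraries held 159.5, 176 and 14.2 normalized counts and its Δβ SP libraries between 18.6 and 28.0, so that WT SP replicate 3 fell below all Δβ SP libraries. The log2 fold was -1.61 (SE 1.01, adjusted p = 0.445, limma) in SP, -2.77 (adjusted p = 0.0480, limma) in SP without WT SP replicate 3, and -1.09 (SE 1.01, adjusted p = 1.0, limma) in BM.

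**Figure D2:**
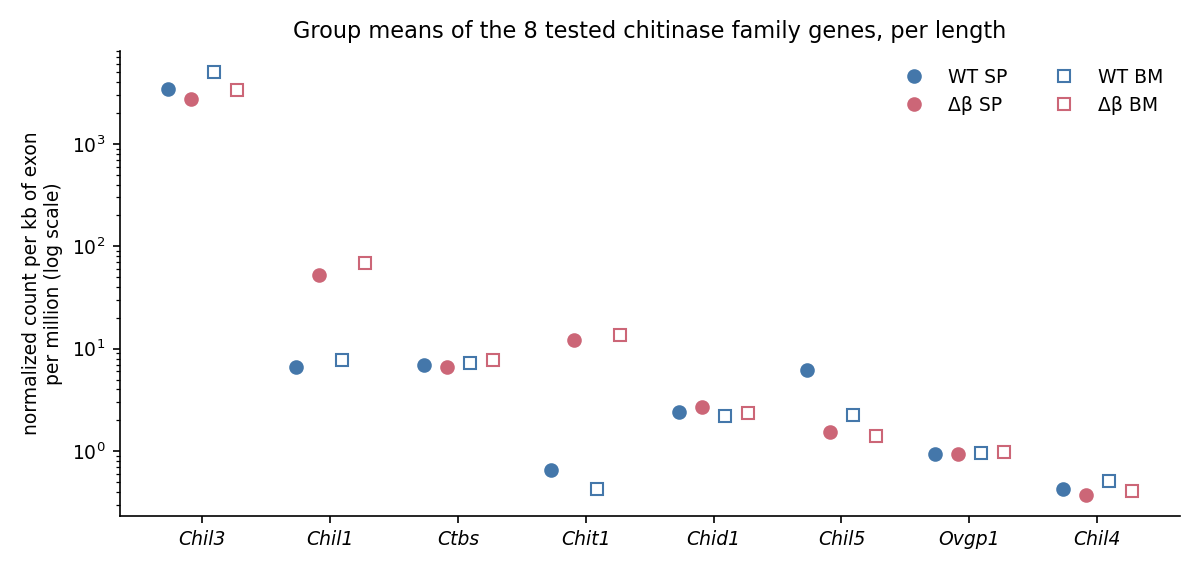
Group means (n = 3) of the 8 tested chitinase family genes, as normalized counts per kb of exon and per 1000000 normalized counts on a log axis, for WT (blue) and Δβ (red) blasts from SP (filled circles) and BM (open squares). Chit1 and Chil1 show a gap between the genotypes in both organs, and Chil3 lies above all others.

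Chil4, the closest paralog of Chil3, had 3 to 29 reads per library and followed Chil3. There were 0.128 to 0.332 Chil4 reads for every 1000 Chil3 reads, and over the 12 libraries the Pearson r of the 2 genes on the log2 scale was 0.898. After the group means were subtracted, r was 0.924. Their longest transcripts were 94.4% identical (1452 of 1538 aligned bases), and 275 of 1490 windows of 50 bases in Chil4 (18.5%) occurred unchanged in Chil3. How reads that match both were counted is not given in the sources used here, and the few Chil4 reads are therefore uncertain. Chit1, Chil1 and Chil3 shared no such window with one another, and their transcripts were 59.2% to 64.7% identical.

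**Figure D3:**
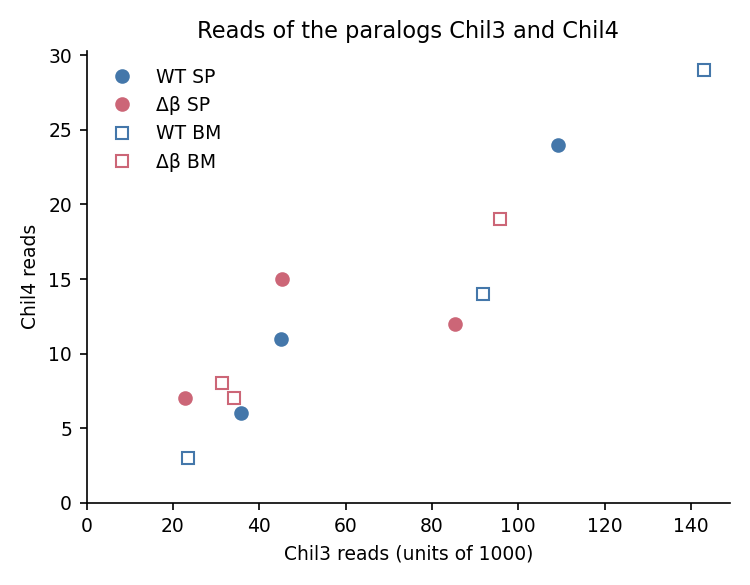
Reads of Chil4 (y axis) against reads of Chil3 in units of 1000 (x axis), 1 point per library, colored by genotype and shaped by organ. Chil4 reads, 3 to 29 per library, rise along with the Chil3 reads.

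Within groups the 3 genes did not move as one. Over all 12 libraries the log2 levels of Chit1 and Chil1 had a Pearson r of 0.927, which includes the genotype difference of both, and after subtraction of group means r was 0.512. Chit1 and Chil3 had r = -0.466 over the 12 libraries and -0.742 within groups, and Chil1 and Chil3 had -0.262 and -0.0594. The libraries share a normalization and each group has 3 of them, so these values are descriptions of 12 points.

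The genes most like Chit1 across the 12 libraries were Cwc22 (r = 0.945), Ctse (0.935), Chil1 (0.927), Wdfy1 (0.923) and Ptprv (0.921). For Chil1 they were Ctse (0.939), Chit1 (0.927), Ube2l6 (0.920), Wdfy1 (0.911) and Npm3-ps1 (0.909). Ctse encodes cathepsin E, an aspartic protease of immune cells, and it had mean normalized counts of 153 (WT) and 1498 (Δβ) in SP, and of 133 (WT) and 2449 (Δβ) in BM. Cwc22, a splicing factor, had means of 440 and 454 normalized counts in WT SP and BM against 6568 and 6498 in Δβ, with little spread within groups. Npm3-ps1 is a pseudogene that can share reads with its parent gene, and its level is uncertain. The choice of these genes used all 12 libraries, so that their likeness carries no test. Within groups r was 0.384 for Chit1 and Ctse and 0.591 for Chil1 and Ctse.

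The genes most like Chil3 were Chil4 (r = 0.898), Adprm (0.867), Stxbp6 (0.856), 9830166K06Rik (0.854) and Fbxo10 (0.848). None of them was among the genes most like Chit1 or Chil1. Stxbp6 ranged from 30.2 to 351 normalized counts and had its lowest values in Δβ SP replicate 2 and WT BM replicate 1, the libraries with 25401 and 23303 normalized counts of Chil3.

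**Figure D4:**
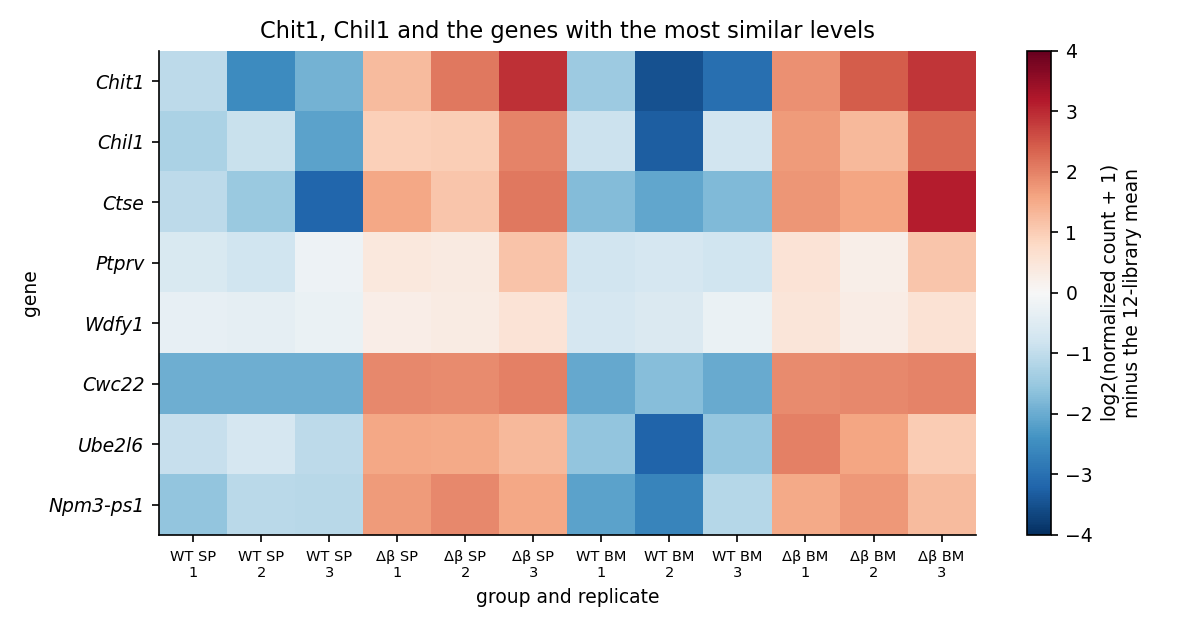
Levels of Chit1, Chil1 and the genes most like them in the 12 libraries, as log2(normalized count + 1) minus the mean of the gene over all libraries (color scale). The 6 Δβ libraries are above the mean and the 6 WT libraries below it in each of the 8 genes, and the spread within groups differs from gene to gene.

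Chit1 and Chil1 are neighbours, and the genes around them were examined for the same pattern. Within 3 Mb of Chit1 lie 101 genes of the table, of which 56 were tested. Their median log2 fold of Δβ over WT was -0.06 in SP and -0.05 in BM, close to that of all genes. Of the 56, 3 had all Δβ libraries above all WT libraries in both organs (0.863% of all genes tested). They were Chil1, Ctse and Ptprv, which encodes a receptor-type tyrosine phosphatase. Chil1 is a member, and it is among the 56 genes over which this count and those that follow run. Nothing is read from its part in them. At an unadjusted p under 0.05 in limma, 13 of the 56 differed in SP and 7 in BM (14.9% and 2.59% of all genes). DESeq2 called 7 in SP and 3 in BM (3.98% and 0.322% of all genes), and edgeR called 0 and 1. Ctse (chr1:131638314-131675507), 2436 kb from Chit1, was the only one of the 56 called by limma. Its log2 fold was 3.47 in SP (SE 0.53, adjusted p = 0.0497, limma) and 4.02 in BM (SE 0.53, adjusted p = 0.0226, limma). The call for Ctse was held in 5 of 24 alternatives in SP and in 15 of 24 in BM. Without WT SP replicate 3, 5 of the 56 genes were called higher and 11 lower in Δβ SP (4.7% and 11.7% of all genes), Ctse and Ptprv among the former. Chil1 is counted there too, but as a member nothing is read from its call. With all 12 libraries limma did not call Chil1, and it was called in 3 of 24 alternatives in SP and 1 of 24 in BM.

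Of the other genes nearest to Chit1 and Chil1, Btg2 passed the filter and Fmod, Prelp, Mybph, Adora1 and Myog did not. Btg2, an antiproliferative gene 32.1 kb before Chit1, had 3369, 2466 and 1498 normalized counts in WT SP and 738, 841 and 679 in Δβ SP. Its log2 fold was -1.63 in SP (SE 0.36, adjusted p = 0.162, limma; -1.94 without WT SP replicate 3, adjusted p = 0.0121) and -0.32 in BM (SE 0.36, adjusted p = 1.0, limma), against the direction of Chit1. Fmod and Prelp, genes of matrix proteoglycans, had at most 1 read per library. Mybph, a myosin-binding protein gene that begins 3.39 kb after the end of Chil1, was below the filter. It had 1 read in the 6 WT libraries together, 3, 2 and 4 reads in Δβ SP and 7, 1 and 8 reads in Δβ BM. In SP every Δβ library of Mybph thus lay above every WT library, as did 7.92% of the genes tested. In BM the closest libraries of the genotypes tied at 1 read each (1.17 normalized counts in Δβ against 1.13 in WT). Counts this low lie around the floor of 3 reads, and nothing is read from their order. Adora1 and Myog beyond it had at most 2 reads.

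Around Chil3, 107 genes of the table lie within 3 Mb and 63 were tested. Limma and edgeR called 0 of them between genotypes in either organ, DESeq2 called 2 in SP and 0 in BM, and 8 and 2 were under an unadjusted p of 0.05 (14.9% and 2.59% of all genes). Without WT SP replicate 3, limma called 1 higher and 8 lower in Δβ SP, where 4.7% and 11.7% of all genes were called. The relative Chia1 (15.4 kb away) had at most 1 read and Chil4 (33.9 kb away) 3 to 29 reads per library, while Chil3 stood among the highest genes of the blasts.

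**Figure D5:**
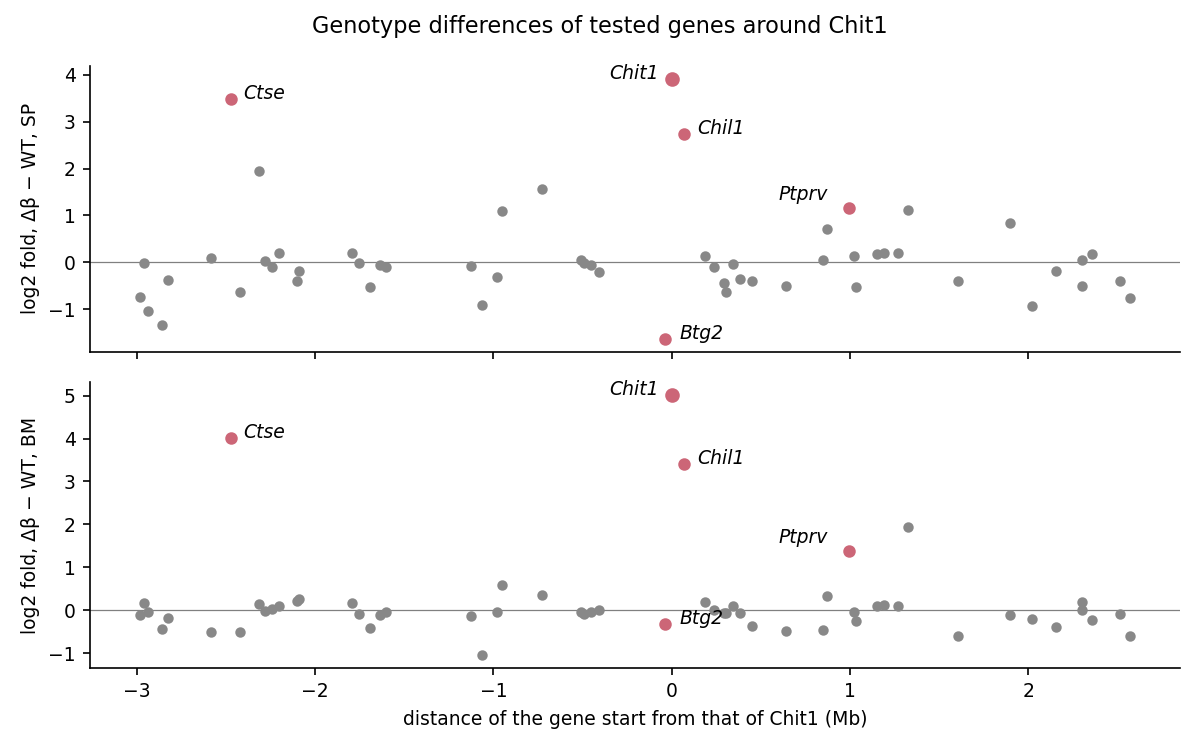
Log2 fold of Δβ over WT in SP (top) and BM (bottom) of the tested genes within 3 Mb of Chit1, against the distance of their starts from that of Chit1 in Mb. Chit1, Chil1 and Ctse stand above the other genes in both organs, and Btg2 lies below 0.

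Genes that act with the chitinase family were described as lists, each beside the medians of all genes given above. Of 8 receptors of chitin or of chitinase-like proteins, 6 were tested, and limma, edgeR and DESeq2 called 0 between genotypes. At an unadjusted p under 0.05, 2 were lower in Δβ SP (8.96% of all genes) and 0 differed in BM (2.59% of all genes). Limma called Cd44, Tlr2 and Lysmd3 once WT SP replicate 3 was left out, all lower in Δβ SP, as were 11.7% of all genes. Il13ra2, the receptor chain described for Chil1, had 0 reads in all libraries. Cd44, a further receptor reported for it, had a log2 fold of -0.79 in SP (SE 0.32, adjusted p = 0.304, limma; -1.24 without WT SP replicate 3, adjusted p = 0.00869) and of -0.05 in BM. Clec7a, the fungal glucan receptor Dectin-1, had 0.18 (-0.42 without that library, adjusted p = 0.505, limma) and 0.06 (SE 0.52). The median of the list was -0.71 in SP and -0.19 in BM.

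Lysosomal enzymes that degrade glycans, including the lysozymes, were all tested (13 genes). Limma and edgeR called 0, and DESeq2 called 2 in SP, Lyz2 among them. At an unadjusted p under 0.05, 2 were higher and 5 lower in Δβ SP (5.93% and 8.96% of all genes), and 1 was higher in Δβ BM (1.25% of all genes), with list medians of -0.12 and 0.04. Without WT SP replicate 3, limma called 1 higher and 5 lower in Δβ SP (4.7% and 11.7% of all genes), Lyz2 among the latter. Lyz2, the myeloid lysozyme, had a log2 fold of -1.57 (SE 0.69, adjusted p = 0.324, limma; -2.34 without WT SP replicate 3, adjusted p = 0.0264) in SP and of -0.64 in BM, and Man2b1, a lysosomal mannosidase, had -0.22 and 0.12 (SE 0.25).

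Chit1 is a known marker of lipid-laden macrophages, and Chil3 of the response to IL-4 and IL-13. Of 12 genes of lipid-laden macrophages 10 were tested, with medians of -0.81 in SP and -0.24 in BM, and limma and edgeR called 0. At an unadjusted p under 0.05, 4 were lower in Δβ SP (8.96% of all genes) and 0 differed in BM (2.59%), and DESeq2 called Ctsd in SP, where it called 3.98% of all genes. Limma called Ctsd and Ctsl once WT SP replicate 3 was left out, both lower in Δβ SP, as were 11.7% of all genes. Npc2, a lysosomal cholesterol carrier, had log2 folds of 0.09 (-0.12 without that library, adjusted p = 0.596, limma) and 0.11 (SE 0.18), and Ctsd, the protease cathepsin D, had -0.70 (SE 0.18, adjusted p = 0.205, limma; -0.85 without WT SP replicate 3, adjusted p = 0.0172) and -0.20. Of 18 genes of the IL-4 and IL-13 response 10 were tested, and limma, edgeR and DESeq2 called 0, with 0 at an unadjusted p under 0.05 in either organ. Their medians were -0.55 in SP and -0.05 in BM. Without WT SP replicate 3, limma called 4 lower in Δβ SP (Il13ra1, Stat6, Tgm2 and Kdm6b), against 11.7% of all genes, and the median was -0.93. Stat6, the transcription factor of that response, had -0.43 and -0.03 (SE 0.24), and Kdm6b, a histone demethylase, -0.67 and -0.12 (SE 0.43). The SP values without that library were -0.73 for Stat6 (adjusted p = 0.0243, limma) and -1.29 for Kdm6b (adjusted p = 0.0145, limma). Arg1 had at most 2 reads per library.

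The neutrophil lineage lists were described because Chil3 is made in it. All 9 primary granule genes were tested, with medians of 0.09 in SP and -0.04 in BM, and the 3 tools called 0. At an unadjusted p under 0.05, 1 was higher in each organ, against 5.93% of all genes in SP and 1.25% in BM. After removal of WT SP replicate 3, limma called Mpo and Prtn3, both higher in Δβ SP (4.7% of all genes), and the median was 0.86. Mpo, the myeloperoxidase of these granules, had log2 folds of 1.68 (SE 0.69, adjusted p = 0.303, limma; 2.64 without WT SP replicate 3, adjusted p = 0.00924) and 1.83 (SE 0.69, adjusted p = 1.0, limma), and the elastase gene Elane 0.10 (0.92 without WT SP replicate 3, adjusted p = 0.201, limma) and 0.08 (SE 0.65). All 14 late granule genes had negative log2 folds in SP, as did 51.9% of all genes, with a median of -1.09. In SP without WT SP replicate 3 the median was -1.59 and 7 were called lower (11.7% of all genes). In BM 3 of 14 were above 0, with a median of -0.44. With all libraries limma and edgeR called 0, 4 were lower in Δβ SP at an unadjusted p under 0.05 (8.96% of all genes) and 0 differed in BM (2.59%), and DESeq2 called Cd177 and Retnlg in SP (3.98%). Ngp, a granule protein gene, had -1.06 (SE 0.41; -1.44 without WT SP replicate 3, adjusted p = 0.0329, limma) and -0.41, and S100a9 -1.08 (SE 0.56; -1.41, adjusted p = 0.122, limma, in the same fit) and -0.46. Of 13 myeloid transcription factors limma and edgeR called 0, with medians of 0.02 and -0.01. At an unadjusted p under 0.05, 1 was higher and 3 lower in Δβ SP (5.93% and 8.96% of all genes) and 0 differed in BM, and DESeq2 called 3 in SP (3.98% of all genes), Klf4 and Spi1 among them. Without WT SP replicate 3, limma called 2 higher and 4 lower (4.7% and 11.7% of all genes), Myb among the former and Spi1 among the latter. Myb, a driver of progenitor growth, had 0.48 and 0.05 (SE 0.38), with 0.99 in SP without that library (adjusted p = 0.0267, limma). Spi1, which encodes PU.1, had -0.67 (SE 0.19, adjusted p = 0.218, limma; -0.86 without it, adjusted p = 0.0150) and -0.16.

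Markers of other cells were read beside Chit1 and Chil1. Of 12 macrophage markers 1 was under 3 reads in every library. Within the groups, 1 was under 3 reads throughout WT SP, 5 throughout Δβ SP and 7 throughout each BM group. The summed level of the 12 markers was 3855 to 5804 (WT) and 3575 to 5140 (Δβ) normalized counts in SP, with overlap. It was 6533 to 9251 (WT) and 4732 to 6092 (Δβ) in BM, without overlap. Of the 11476 single genes tested, 474 were lower in Δβ BM without overlap. Adgre1, Vcam1 and Slc40a1 made up most of the sum, with means of 2628, 2123 and 921 normalized counts over the 12 libraries. The part of macrophages in the levels of Chit1 and Chil1 was not tested. The complement genes C1qa, C1qb and C1qc reached at most 30.8 normalized counts, in WT SP replicate 1, and at most 4.27 in any Δβ library. The 9 mature neutrophil markers summed to 9943 to 40634 (WT) and 9098 to 9768 (Δβ) normalized counts in SP, and to 12882 to 35913 (WT) and 8885 to 19758 (Δβ) in BM. The 6 stroma and endothelium markers summed to 1162 to 1226 (WT) and 1583 to 2549 (Δβ) in SP, without overlap. In BM they summed to 831 to 1484 (WT) and 1215 to 2104 (Δβ), with overlap. Of all single genes tested, 7.92% were higher in Δβ SP without overlap. Pecam1 had a mean of 1354 and Pdgfrb of 125 normalized counts over the 12 libraries, and the other markers of this list were below the filter. The part of these markers in the levels of Chit1 and Chil1 was not tested. The 8 erythroid markers summed to at most 14.9, the 5 megakaryocyte markers to at most 106, the 4 B cell markers to between 223 and 466, and the 4 T cell markers to at most 66.7 except in Δβ BM replicate 1, where they reached 288. Cd79b, with a mean of 368 normalized counts over the 12 libraries, made up most of the B cell sum.

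The highest Chit1 and Chil1 values of each organ were those of Δβ replicate 3, and these libraries stood apart in Epx, 1 of the 6 eosinophil markers. Epx, the eosinophil peroxidase gene, had 263 normalized counts in Δβ SP replicate 3 and 520 in Δβ BM replicate 3, against at most 31.5 in the other Δβ libraries and 5.07 in WT. The 6 eosinophil markers summed to 430 to 1590 (WT) and 222 to 1838 (Δβ) in SP, and 528 to 1697 (WT) and 178 to 3512 (Δβ) in BM. These sums overlapped between the genotypes in each organ. Of the 6 eosinophil markers 4 were tested, and 1 of the 4 had a log2 fold above 0 in SP and 1 in BM. Their median log2 folds were -1.50 in SP and -1.15 in BM, and limma called 0. The part of eosinophils in the levels of Chit1 and Chil1 was not tested. Leaving out Δβ replicate 3 of both organs was an alternative chosen after the data were seen. The log2 fold of Chit1 was then 3.49 in SP and 4.76 in BM, that of Chil1 was 2.41 and 3.15, and that of Chil3 was -0.55 and -0.13. Stat3, measured per gene without separation of its isoforms, had log2 folds of -0.32 (SE 0.16) in SP and -0.10 (SE 0.16) in BM.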

How the data were processed

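Poly-A libraries of Venus+ blast RNA were sequenced for 4 groups (WT and Δβ, SP and BM) with 3 libraries each. The deposited signal values are read counts per gene that the authors scaled by the size factor of each library. Whole reads were recovered from these values (100% whole within 0.001 reads). The submitters' processing notes name FastQC, STAR, featureCounts, DESeq2 and the builds GRCm38 and mm10, with no versions. The strand setting and the treatment of shared reads are not given in the sources used here. A further 6 columns without a sample label were not used.

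Genes with a mean of at least 10 were fitted with lmFit and eBayes (trend) of limma 3.58.1 in R 4.3.3, on log2(normalized count + 1), with 1 mean per group over all 12 libraries and Benjamini-Hochberg adjustment over 11476 genes at a threshold of 0.05. The procedure was tested on simulated data. The members and gene lists were chosen with earlier results of these data known. Named genes were the 3 members, their relatives, the 2 highest genes of each list (none being called), the 5 genes most like each member by Pearson r, the 3 nearest genes on each side and called genes within 3 Mb. Single marker genes and others outside this rule, such as Il13ra2 and Arg1, were chosen after their values were seen, as was the TATAAA motif. Positions and promoters come from RefSeq (GRCm38.p6; 24376 genes matched) and exon lengths from GENCODE (23555 genes matched). Protein sequences were not used here, and single genes of some lists are not reported here.

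Counting limits the precision: 3 reads were taken as the floor, which covers counting error only. Alternatives were pseudocounts of 0.25 and 4, no filter or a minimum mean of 50, TMM, eBayes without trend, edgeR 4.0.16 and DESeq2 1.42.0 on recovered reads, 6 libraries of an organ or genotype alone, a replicate block, and left-out libraries.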

Additional observations from a re-analysis of the deposited data

How the results depend on the processing

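The number of genes called between genotypes depended strongly on the analysis, and for each change below the cause was not tested. In SP 12 genes were called, and the count was 1 with a pseudocount of 0.25, 5 without a filter, 2 at a minimum mean of 50, 3 with TMM, 3 without the trend, 4 with edgeR, 457 with DESeq2 and 2 in the 6 SP libraries alone. It was 1987 without WT SP replicate 3 and Δβ BM replicate 3 and 23 without replicate 3 of both Δβ organs, the latter chosen after seeing the data. Leaving out single libraries gave 1 to 1884 genes, the lowest without Δβ SP replicate 3 and the highest without WT SP replicate 3. In BM 8 genes were called, against 5 without the trend, 37 with DESeq2, 3 in the 6 BM libraries alone, 26 without replicate 3 of both Δβ organs and 1 to 13 with single libraries left out, the lowest without Δβ BM replicate 1 or 2 and the highest without WT SP replicate 1. For SP against BM in WT the count of 0 became 3 without a filter, 111 with DESeq2, 803 without WT SP replicate 3 and Δβ BM replicate 3, and 0 to 598 with single libraries left out, the highest without WT SP replicate 3. In Δβ it became 3 without a filter and 2 with DESeq2, and for the difference of the genotype folds 5 and 3.

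For the genotype contrasts, a block for the replicate number, shared by WT and Δβ, left 2 genes called in SP and 5 in BM. Deviations from the group means of WT and Δβ libraries with the same number correlated at 0.20, -0.17 and -0.01 in SP. In BM these values were 0.13, -0.08 and -0.09. The block for the organ contrasts was the number within each genotype. Deviations from the group means of SP and BM libraries with the same number correlated at 0.664, 0.608 and 0.634 in Δβ but at -0.01, -0.04 and -0.24 in WT, so the numbers do not pair the samples of both genotypes, although every Δβ library correlated best with its own number. No organ result of a member passed the threshold under the block within each genotype.

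The log2 folds of Chit1 and Chil1 between genotypes kept their direction in all 24 alternatives. In SP Chit1 remained among the called genes with a pseudocount of 4, with DESeq2, and without WT SP replicate 3 (alone or with Δβ BM replicate 3) or WT BM replicate 1. In BM it was no longer among them without a filter, in the 6 BM libraries alone, without any 1 Δβ BM library, without WT BM replicate 2 or 3, or without WT SP replicate 3 and Δβ BM replicate 3. Values of Chil3 and of the organ contrasts changed sign in some. With single libraries left out, the genotype fold of Chil3 ran from -0.83 to 0.0023 in SP and from -1.25 to 0.061 in BM. SP against BM in WT ran from -0.62 to 0.63 for Chil1, which was -0.094 with edgeR and -0.083 with DESeq2, and from -1.03 to 0.29 for Chil3, which was 0.13 without WT SP replicate 3 and Δβ BM replicate 3. In Δβ it ran from -0.69 to 0.15 for Chit1 and from -0.57 to 0.27 for Chil3. The difference of the genotype folds ran from -1.10 to 0.16 for Chil1 and from -0.53 to 0.78 for Chil3, which was 0.017 with TMM and 0.11 with edgeR and with DESeq2. In no alternative did a member pass the threshold in an organ contrast, the lowest adjusted p being 0.459, for Chit1 in WT. WT levels of Chit1 rest on 3 to 20 reads, which limits the precision of its fold.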
